A study of Mus musculus with 10 samples.

Results

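Mouse fibroblasts sampled on day 3 of chemical reprogramming (d3) were compared with cells sampled on day 2 (d2) of the same course. Cells were taken by the day in their names and kept where at least 4000 genes were detected, which left 38 of 40 cells at d3 and 83 of 88 at d2. Together they were 121 of the 670 cells of the series that passed this limit, out of 808 cells in all. The starting cells were mouse embryonic fibroblasts (MEFs) of ICR mice, isolated from E13.5 embryos without head, limbs and viscera, so that they were a mixed primary culture and not a line. Both groups received the same treatment, d3 cells for 1 day longer, and untreated cells of these days were not analysed here. The treatment was the C6FAE cocktail of CHIR99021 (an inhibitor of the kinase GSK3), RepSox (an inhibitor of the TGF-beta receptor ALK5, the 6 of the name), Forskolin (an activator of adenylyl cyclase), AM580 (a retinoic acid receptor agonist) and EPZ004777 (an inhibitor of the histone methyltransferase DOT1L). The methods of the study list valproic acid besides in the general protocol, while the labels of these cells name C6FAE. Medium with serum, serum replacement and basic FGF was replaced every 4 days, so that d2 and d3 fell within the same feeding. Cells were picked by hand, and RNA was counted by UMIs, short random tags that let copies of a molecule be counted as 1.

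Each agent acts on a pathway with well-known transcriptional targets. Inhibition of GSK3 stabilises beta-catenin, which acts with TCF/LEF factors and induces a set of its own inhibitors, such as *Notum* and *Dkk1*. Forskolin raises cAMP, and cAMP activates CREB, which binds the cAMP response element (CRE) and drives a fast and often brief response. Retinoic acid receptors induce the enzymes that remove retinoic acid, and TGF-beta signals through SMAD proteins to matrix and contractile genes. The wanted end point of the course is a cell like those of extraembryonic endoderm (XEN), for which *Sox17*, *Sall4*, *Gata4* and *Foxa2* are master genes.

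UMIs of each cell were scaled to the total of the cell, as CPM, without the ERCC spike-in RNAs, and the level of a gene is given as log2(CPM + 1). A difference is the mean of these levels over the d3 cells minus the mean over the d2 cells. Kept cells had a median of 1055206 UMIs at d2 and 763742.5 at d3, with 38116 to 4871768 and 29618 to 4849530 UMIs in single cells. The median number of detected genes was 8641 and 8017.5. The 10 samples of the series are batches that the cell names do not show, so the cells were treated as 1 sample without replicates. For that reason no test, p-value or standard error was computed from cells, and genes are counted by the size of their difference alone. The spread given is that between cells. Intervals on UMI sums cover counting error only. Those on shares of cells take the cells as independent draws and leave out the spread between cultures.

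Of 9541 genes with an average level of at least 1 over the days, 387 were higher at d3 by over 1 and 610 were lower by over 1, which is 4.06% and 6.39% of the genes. A difference of over 2 was found for 29 and 48 genes. The median difference of all 9541 genes was -0.06, with quartiles of -0.45 and 0.32, and each gene list below is read against these values. The balance of higher and lower genes depended on the scale. Size factors of DESeq2 gave 297 higher and 798 lower genes with a median of -0.16, whereas the log2 of the mean CPM gave 867 and 692. No gene separated the days, since for 0 genes every d3 cell lay above or below every d2 cell. In 110 genes the d3 cell was the higher in at least 75% of all pairs of a d3 and a d2 cell, and in 159 genes in at most 25%.

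**Figure D1:**
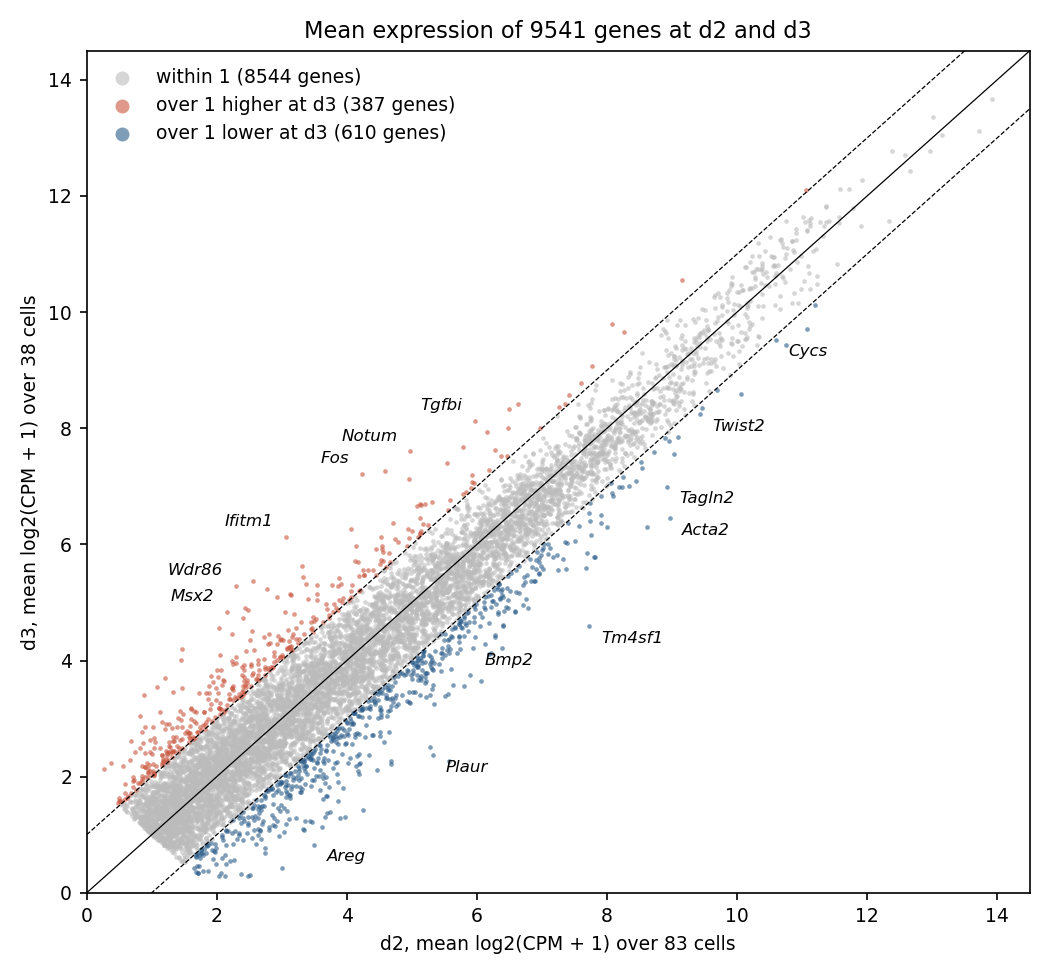
Mean log2(CPM + 1) of 9541 genes over 83 d2 cells (horizontal) and 38 d3 cells (vertical), 1 point per gene, with dashed lines at a difference of 1. Most genes lie between the lines, 387 lie above them and 610 below, and genes at the highest levels stay near the diagonal.

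Cells of d2 did not form 1 uniform group. Their numbers run to 88, with 45 kept cells numbered up to 48 and 38 numbered from 49, while all d3 cells are numbered up to 40. The later-numbered d2 cells were deeper, with a median of 1254579.5 UMIs against 721613. Of the 9541 genes, 391 were higher in them than in the early-numbered by over 1 and 193 were lower. For d3 against d2 these counts were 387 and 610, so differences of this size were also found within d2. The median of UMIs per spike-in UMI was 32.4 in the early-numbered and 19.9 in the later-numbered d2 cells, and 36.8 at d3. In the d4 cells of the same ranges it was 37.8 and 19.2. What the cell numbers stand for is not stated, and their part in the results was not tested. Counts for gene lists are therefore also given against both ranges, and values against each range for a part of the named genes. Against the early-numbered d2 cells 365 genes were higher and 476 lower at d3 by over 1, and against the later-numbered 638 and 1023. Against each range alike, 210 genes (2.2%) were higher and 338 (3.54%) were lower by over 1. All 387 higher genes and 608 of the 610 lower genes kept their direction against both ranges. The d2 mean is an average over the cells of both ranges, so this outcome was largely fixed by the choice of the genes. In 300 of the 387 and 464 of the 610, the early-numbered d2 cells had a mean between those of the later-numbered d2 cells and of d3.

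Of 24 listed targets of Wnt/beta-catenin signaling 20 passed the limit on level, and 8 of these were higher at d3 by over 1 and 1 was lower, with a median difference of 0.60. Against both d2 ranges 3 were higher, *Notum*, *Dkk1* and *Bambi*, and none was lower. *Notum*, an enzyme that inactivates Wnt proteins by removing their lipid, had levels of 0 to 9.0 with a median of 5.59 over d2 cells, and of 4.20 to 11.12 with a median of 7.78 over d3 cells. Every d3 cell thus held *Notum* transcripts, which 78 of the 83 d2 cells did. Its difference was 2.64, with 1.26 against the early-numbered and 4.27 against the later-numbered d2 cells. The gene lies on chromosome 11 (mm9, 120515102 to 120522489, minus strand). *Wif1*, a secreted Wnt-binding inhibitor, had a median of 2.01 at d2 (0 to 10.03) and of 4.83 at d3 (0 to 9.01), and *Nkd2*, an intracellular inhibitor of Dishevelled, 2.38 (0 to 8.30) and 4.60 (0 to 8.90). The ranges of the cells overlapped for both genes, and their differences were 2.02 and 1.65, but 0.81 and 0.97 against the early-numbered d2 cells. *Dkk1*, which blocks the Wnt co-receptor, was higher by 1.24, and its receptor *Kremen1* by 1.01, the latter by 0.24 against the early-numbered d2 cells. The transcription factor gene *Sp5* was higher by 1.61, but by 0.76 against the early-numbered. The gene lower by over 1 was *Sfrp1*, another secreted Wnt antagonist, which was lower by 1.03 in the mean of cells but higher by 0.51 from UMIs summed over cells. *Axin2* and *Lef1*, both in wide use as Wnt reporters, differed by 0.46 and 0.27.

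The list as a whole depended on the d2 range. Its median was 0.24 against the early-numbered and 0.95 against the later-numbered d2 cells, and 3 members were higher by over 1 against both, namely *Notum*, *Dkk1* and *Bambi*. Outside the list, the Wnt receptor gene *Fzd6* was higher by 2.55, from a median of 0.70 (0 to 6.58) to 4.4 (0 to 7.52), and *Draxin*, which codes for a secreted axon guidance protein that also antagonises Wnt, by 2.46. Both were higher by over 2 against either range. The letters CTTTGAT, a form of the TCF/LEF site, stood on either strand within 250 bases before a start of 3.72% of 27025 genes in RefSeq (GRCm38.p6). They stood there in 2 of the 13 Wnt targets that had a promoter in that table. Both were among the higher genes, and they are shown to place the letters, in capitals, with 20 bases on each side:
Sp5, chr2:70474799-70474845, plus strand: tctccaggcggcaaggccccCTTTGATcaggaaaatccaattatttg
Tnfrsf19, chr14:61038163-61038209, minus strand: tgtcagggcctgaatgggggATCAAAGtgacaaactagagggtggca
In *Tnfrsf19*, a receptor gene of the TNF family, the site reads on the other strand. Its median level was 5.79 at d2 (0 to 8.74) and 6.60 at d3 (1.14 to 8.85), with a difference of 1.06.

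Of 17 genes of the BMP pathway past the limit 5 were higher at d3 and 1 was lower by over 1, while 11 were within 1, with a median of 0.58. Against both d2 ranges 2 were higher and 1 lower. The ligand gene *Bmp2* was lower at d3, with a median of 5.20 over cells (0 to 8.83) against 6.39 at d2 (0 to 8.69). Its difference of -1.71 was nearly the same against the early-numbered (-1.73) and the later-numbered d2 cells (-1.70). The homeobox gene *Msx2*, a classical BMP target, had a median of 0.79 at d2 (0 to 8.67) and of 5.67 at d3 (0 to 8.95). That is a difference of 2.69, of 1.91 against the early-numbered and 3.61 against the later-numbered d2 cells, and its mean was 27.4 CPM at d2 and 94.0 CPM at d3. *Bambi*, a decoy receptor that limits BMP and TGF-beta signals, was higher by 1.5, the inhibitory SMAD gene *Smad6* by 1.29, the receptor gene *Bmpr1a* by 1.07 and the ligand gene *Bmp6* by 1.03. The last 3 differed by 0.68, 0.78 and 0.70 against the early-numbered d2 cells. *Bmp4*, another ligand gene, differed by -0.16.

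Of 19 TGF-beta targets 3 were higher and 2 lower by over 1, and against both d2 ranges 3 were higher and none lower. The median was -0.10, which became 0.21 after thinning every cell to 50000 UMIs. *Tgfbi*, a matrix protein gene named for its induction by TGF-beta, had a median of 6.39 at d2 (0 to 10.12) and of 8.73 at d3 (3.26 to 10.54). Its difference was 2.15, of 1.07 against the early-numbered and 3.44 against the later-numbered d2 cells. The ligand gene *Tgfb2* was higher by 1.88 and *Ptk7*, a receptor-like kinase gene of planar cell polarity, by 1.31. The latter was the higher in 81.0% of pairs of a d3 and a d2 cell. *Ctgf* and *Postn*, which code for matrix-associated proteins, were lower by 1.18 and 1.00, and by 0.99 and 0.82 against the early-numbered d2 cells. Activin and its antagonist were lower together. *Inhba*, the activin A subunit gene, went from a median of 8.43 (3.25 to 11.18) to 7.51 (0 to 10.96), and *Fst*, which codes for the activin-binding follistatin, from 5.77 (0 to 10.77) to 3.47 (0 to 9.82). These differences were -1.25 and -2.13, and they exceeded 1 against both d2 ranges.

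Retinoic acid genes had mostly positive differences. Of 17 members past the limit 14 had a positive difference, 3 were higher by over 1 against all d2 cells and against both ranges, and none was lower by over 1, with a median of 0.36. *Cyp26b1*, which codes for an enzyme that degrades retinoic acid, had a median of 2.14 at d2 (0 to 8.71) and of 5.80 at d3 (0 to 8.82). UMIs of this gene were found in 37 of 38 d3 cells and 66 of 83 d2 cells, and the difference was 2.17. The receptor gene *Rarg* was higher by 1.66, from a median of 3.55 (0 to 7.47) to 5.49 (0 to 7.48). *Rarb*, a direct target of retinoic acid receptors, was higher by 0.93. The most negative difference of the list was that of *Stra6*, a receptor gene for retinol uptake, with -0.98.

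Of 28 listed genes of the cAMP/CREB response 15 passed the limit and 13 did not. Of the 15, 5 were lower by over 1 and 1 was higher, with a median of -0.59, and all 6 were past 1 against both d2 ranges. *Fos*, *Fosb* and *Dusp1*, which were higher at d3, were counted with the immediate early genes and not here. *Areg*, which codes for the EGF receptor ligand amphiregulin, had levels of 0 to 8.80 with a median of 2.71 at d2. At d3 the median was 0 and the highest cell reached 7.17, with UMIs in 12 of 38 cells against 66 of 83 at d2. The mean was 57.3 CPM at d2 and 6.46 CPM at d3, and the difference in log2 level was -2.67, of -2.16 against the early-numbered and -3.26 against the later-numbered d2 cells. *Stc1*, a gene for the hormone stanniocalcin, went from a median of 5.16 (0 to 9.79) to 1.89 (0 to 6.97). *Gem*, a small GTPase gene that is quickly induced by stimuli, went from 3.71 (0 to 9.17) to 0 (0 to 5.91). In both genes the ranges overlapped, with differences of -2.42 and -2.35. The orphan nuclear receptor gene *Nr4a1* was lower by 1.5 and *Bdnf*, the neurotrophin gene, by 1.39. The member higher by over 1 was *Rgs2*, a regulator of G-protein signaling, which was higher by 1.18 against all d2 cells and by 1.18 against either range.

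A CRE has the letters TGACGTCA, and TGACG at its start is the shorter form. Either strand of the 250 bases before a start held the shorter form in 19.8% of 27025 genes and the whole CRE in 1.77%. Of 22 cAMP/CREB genes with a promoter in the table, 16 (72.7%) held the shorter form and 5 (22.7%) the whole. All 4 of the genes past a difference of 1 that had a promoter there held the shorter form, with 3 lower at d3 and *Rgs2* higher. The stretch nearest the start is shown for each, with the letters in capitals on the strand of the gene:
Areg, chr5:91139521-91139565, plus strand: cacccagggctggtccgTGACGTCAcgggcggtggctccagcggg
Nr4a1, chr15:101266786-101266830, plus strand: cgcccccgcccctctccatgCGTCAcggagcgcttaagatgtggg
Bdnf, chr2:109692381-109692425, plus strand: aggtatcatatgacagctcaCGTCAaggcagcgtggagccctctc
Rgs2, chr1:144004192-144004236, minus strand: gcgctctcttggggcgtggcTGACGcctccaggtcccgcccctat
In *Areg* the letters on both strands overlap and make a whole CRE. *Bdnf* has several starts, and the stretch stands before 1 of them. The letters describe the sequence only and do not show binding.

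Contractile and cytoskeletal targets of SRF and YAP had mostly negative differences. All 27 members in the table passed the limit, 12 were lower by over 1, none was higher by over 1 and 25 had a negative difference. The median was -0.77, the lowest of the 28 lists, and 8 members were lower by over 1 against both d2 ranges. *Acta2*, the smooth muscle actin gene on chromosome 19 (mm9, 34315580 to 34329826, minus strand), had a median of 9.09 at d2 (3.45 to 12.80) and of 6.01 at d3 (2.54 to 12.24). Only 7 of 38 d3 cells lay above the d2 median, although the highest d3 cell was near the highest d2 cell. Its difference was -2.52, of -2.81 and -2.18 against the early- and later-numbered d2 cells, and its mean was 1237 CPM at d2 and 476 CPM at d3. *Actn1*, the actin cross-linker alpha-actinin, was lower by 2.13 and the actin-binding transgelin genes *Tagln2* and *Tagln* by 1.93 and 1.85. *Tagln2* was present in all d2 cells at 6.28 to 10.88, whereas the d3 cells spread from 0 to 9.95. *Srf* itself differed by 0.36. Summed over the list, the median cell held 16841 CPM at d2 and 11516 CPM at d3, and 1 d3 cell held 76879 CPM.

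**Figure D2:**
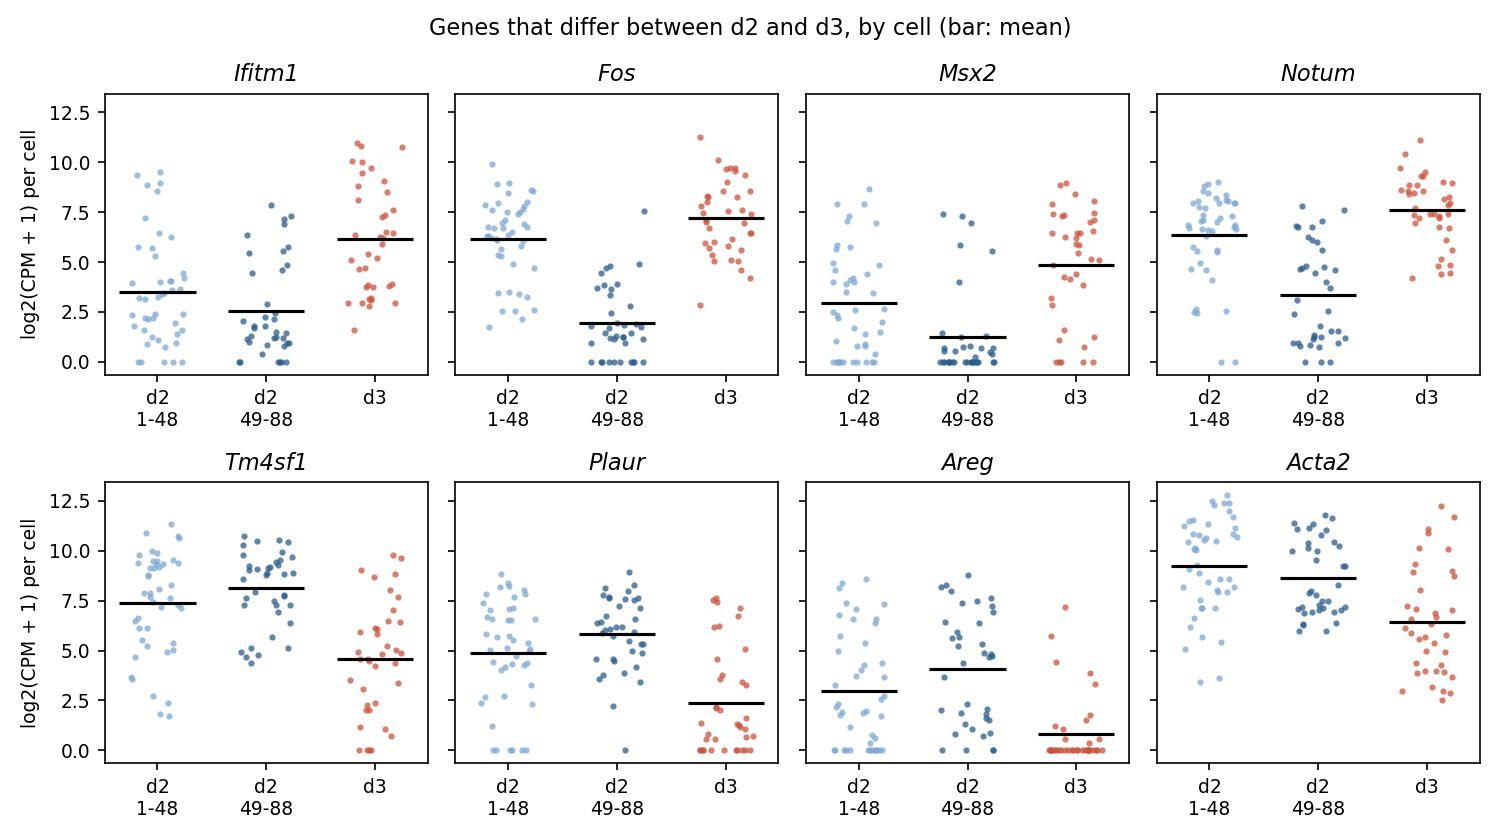
Level, log2(CPM + 1), of 8 genes in single cells, with 45 early-numbered d2 cells (1-48), 38 later-numbered d2 cells (49-88) and 38 d3 cells, and the mean of each group as a bar. *Ifitm1*, *Fos*, *Msx2* and *Notum* are highest on average at d3, *Tm4sf1*, *Plaur*, *Areg* and *Acta2* are lowest there, and all groups overlap. Of the 8 genes, *Fos* and *Notum* differ most between the d2 ranges, and others, such as *Msx2* and *Areg*, differ less.

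Feedback genes of the ERK pathway were lower at d3 in part, with 7 of 18 lower by over 1, 1 higher and a median of -0.70. Against both ranges 6 were lower and none higher. *Spry2* and *Spry4*, which code for Sprouty inhibitors of receptor tyrosine kinase signaling, had medians of 5.49 (0.71 to 10.17) and 5.79 (0 to 8.75) at d2 and of 3.91 (0 to 7.79) and 4.34 (0 to 7.24) at d3. Their differences were -1.86 and -1.73. The ERK phosphatase genes *Dusp4* and *Dusp6* were lower by 1.43 and 1.36, and *Phlda1*, a gene induced by growth factors, by 1.74. Among ligands of the EGF receptor, *Hbegf* was lower by 2.19 and *Ereg* by 1.20, besides *Areg*. The receptor gene *Fgfr2* went the other way, from a median of 1.64 at d2 (0 to 7.59) to 5.02 at d3 (0 to 8.03), a difference of 2.22. Of 18 ligands and receptors of the EGF, FGF and PDGF families past the limit, 3 were lower and 1 higher by over 1, also against both ranges. Their median was -0.08, which became 0.52 in the log2 of the mean CPM.

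Immediate early genes, which stimuli induce without new protein, were split. Of 21 members past the limit 7 were higher and 2 lower by over 1, with a median of 0.39, and 4 were higher and none lower against both ranges. *Fos*, which codes for an AP-1 subunit, had a median of 3.92 at d2 (0 to 9.89) and of 7.27 at d3 (2.85 to 11.25), and 37 of 38 d3 cells lay above the d2 median. Of all genes named here it depended most on the d2 range. Its mean level was 6.17 in early-numbered and 1.93 in later-numbered d2 cells and 7.22 at d3, so that the difference of 2.99 was 1.05 against the former and 5.29 against the latter. At d1 the mean of *Fos* was 7.04. *Fosb*, a gene of the same family, was higher by 2.14 and *Dusp1*, a MAP kinase phosphatase gene, by 1.56. *Socs3*, the cytokine feedback inhibitor gene, went from a median of 2.71 (0 to 8.27) to 5.13 (0 to 7.92), with a difference of 2.33. *Egr1* was higher by 1.34 against all d2 cells but by 0.16 against the early-numbered. *Myc* and *Klf10* were lower by 1.06 and 1.09.

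Cell cycle transcripts were lower in the typical cell and as high as before in the highest cells. None of 44 S phase and 52 G2/M genes past the limit was higher by over 1, while 10 and 14 were lower by over 1, and 8 and 9 against both d2 ranges. The medians were -0.60 and -0.73, with 38 and 45 genes below 0. Summed G2/M transcripts ran from 875 to 17007 CPM over d2 cells with a median of 6109 CPM, and from 605 to 20148 CPM over d3 cells with a median of 3620 CPM. The lower quartile went from 2881 to 1178 CPM and the upper quartile from 8791 to 9878 CPM. The d3 cells therefore spread further in both directions. The d2 ranges were close to each other here, with medians of 6458 and 6070 CPM. The difference nearly vanished where cells were pooled. From UMIs summed over cells the median difference of the G2/M list was -0.01, and from the mean CPM it was -0.11.

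*Cdk1*, the kinase of mitotic entry, reached 20 CPM in 79 of 83 d2 cells (95.2%, exact Clopper-Pearson interval 88.1% to 98.7%) and in 26 of 38 d3 cells (68.4%, 51.3% to 82.5%). *Ccnb1*, which codes for its partner cyclin B1, reached it in 85.5% and 60.5% of cells, with intervals of 76.1% to 92.3% and 43.4% to 76.0%. The same count was made for 4 other genes. Cells are not replicates of a day. The intervals take them as independent draws and leave out the spread between cultures, so they do not test the days against each other. *Mcm6*, a subunit of the replicative helicase, reached 20 CPM in 72.3% (61.4% to 81.6%) and 47.4% of cells (31.0% to 64.2%). The topoisomerase gene *Top2a* reached it in 71.1% (60.1% to 80.5%) and 57.9% (40.8% to 73.7%), and *Mki67*, the proliferation marker, in 56.6% (45.3% to 67.5%) and 44.7% (28.6% to 61.7%). *Pcna*, the replication clamp gene, reached it in 98.8% and 94.7% of cells. The largest G2/M differences were those of *Cenpf* (-1.46), a kinetochore protein gene, and of *Birc5* (-1.41), *Anln* (-1.41) and *Nuf2* (-1.38), which act in spindle attachment and cytokinesis. From summed UMIs *Birc5* and *Anln* were higher at d3 by 0.04 and 0.08. Among S phase genes *E2f8*, a repressor gene of the E2F family, was lower by 1.60 and *Usp1* by 1.46. The 14 lower G2/M genes ran together among the cells of both days. All 91 pairs had Spearman correlations above 0, with a median of 0.75 over the 38 d3 cells and of 0.63 and 0.60 over the 45 and 38 d2 cells of the ranges. The correlation is a description of cells that differ in depth and share a common total.

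**Figure D3:**
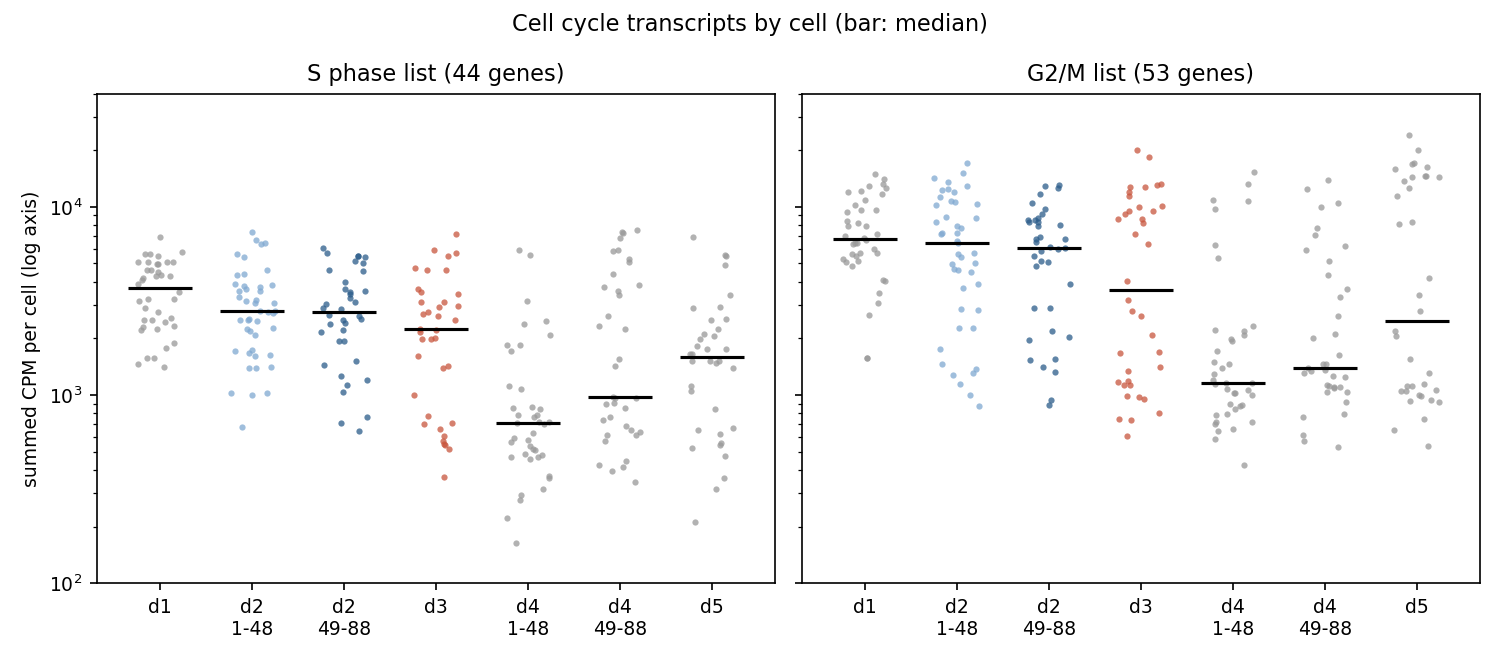
Summed CPM of the 44 S phase and the 53 G2/M genes in single cells on a log axis, from d1 to d5, with d2 and d4 split by cell number and the median of each group as a bar. The G2/M median is 3620 CPM at d3, below the 6458 and 6070 CPM of the d2 ranges, and single d3 cells spread from 605 to 20148 CPM.

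The letters TTTGAA, known as the cell cycle homology region (CHR) of late cell cycle promoters, stood on either strand in the 250 bases before a start of 18.3% of all genes and of 20 of 47 G2/M genes (42.6%) in the RefSeq table. Among the G2/M genes lower by over 1 they stood in 2 of 13. These were *Cdk1*, with a difference of -1.17, and *Cdc20*, an activator gene of the anaphase-promoting complex, with -1.08. Both are printed since the letters lie close to the start, in capitals, on the strand of the gene:
Cdk1, chr10:69352913-69352947, minus strand: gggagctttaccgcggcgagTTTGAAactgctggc
Cdc20, chr4:118437344-118437381, minus strand: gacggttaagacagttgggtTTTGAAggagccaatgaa
They begin 15 and 18 bases before the start.

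Genes that restrain the cell cycle differed by gene. Of 24 p53 targets and inhibitors 4 were higher and 2 lower by over 1, with a median of 0.44, and against both ranges 2 were higher and 1 lower. *Trp53inp1*, a p53-induced gene, went from a median of 1.18 (0 to 6.66) to 4.22 (0 to 7.83), with a difference of 1.81. The retinoblastoma gene *Rb1* was higher by 1.29 and *Btg2*, an antiproliferative gene, by 1.12. *Cdkn1c*, which codes for the inhibitor p57, was lower by 2.07.

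Of 29 collagen genes and collagen-processing enzymes 6 were higher at d3 by over 1, none was lower and 23 were within 1, with a median of 0.39. Against both ranges 4 were higher. *Col3a1*, a fibrillar collagen gene, had a median of 6.66 at d2 (3.09 to 10.18) and of 8.11 at d3 (2.96 to 11.27), a difference of 1.53. *Col16a1* was higher by 1.48, and *Col6a1* and *Plod2*, a collagen-modifying enzyme gene, each by 1.18. Of 17 matrix metalloproteinases and related genes 3 were higher, 5 lower and 9 within 1, and against both ranges 3 were higher and 4 lower. *Mmp11*, which codes for stromelysin-3, had a median of 4.02 at d2 (0 to 10.86) and of 7.87 at d3 (0 to 11.88). The difference of 2.68 was slightly larger against the early-numbered d2 cells (3.05) than against the later-numbered (2.24). *Mmp13*, a collagenase gene, was higher by 1.97. In contrast *Plaur*, the urokinase receptor gene, went from a median of 5.70 (0 to 8.96) to 1.30 (0 to 7.65), and its ligand gene *Plau* from 2.43 (0 to 7.17) to 0 (0 to 5.48). *Mmp3*, which codes for stromelysin-1, went from 4.43 (0 to 11.43) to 1.88 (0 to 10.28). The differences of these were -2.96, -2.0 and -2.46, the last of them -1.29 against the early-numbered and -3.86 against the later-numbered d2 cells.

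Among stress and metabolic lists, NRF2 and glutathione genes were lower in part. Of 28 members past the limit 11 were lower by over 1 and 1 higher, with a median of -0.50, and 6 were lower and none higher against both ranges. *Nqo1*, a quinone reductase gene and standard NRF2 target, had a median of 4.79 at d2 (0 to 9.0) and of 2.55 at d3 (0 to 6.58), a difference of -1.88. *Gclm*, a subunit gene of the enzyme that starts glutathione synthesis, was lower by 1.79, and *Gsr*, the glutathione reductase gene, by 1.66. *Gsto1*, a glutathione transferase gene, was lower by 1.71, which was -0.93 against the early-numbered and -2.63 against the later-numbered d2 cells. Amino acid genes that the ATF4 response induces were lower with them, namely *Asns* (asparagine synthetase) by 2.08, *Phgdh* and *Psph* (serine synthesis) by 1.75 and 1.25 and the cystine transporter gene *Slc7a11* by 1.48. In that list 6 of 29 were lower and none was higher by over 1, with a median of -0.32, and 3 were lower against both ranges.

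Energy metabolism differed little. Of 74 oxidative phosphorylation genes 1 was lower by over 1 against all d2 cells and none against both ranges, with a median of -0.07. That gene was *Cycs*, cytochrome c, with a median of 10.58 at d2 (8.33 to 12.37) and of 9.52 at d3 (7.11 to 10.87), and d3 cells were the higher in 17.2% of pairs. Cholesterol synthesis genes had a median of 0.48, with 23 of 29 above 0 and 1 higher by over 1, *Mvk*, the mevalonate kinase gene (1.00). None of this list was higher by over 1 against both ranges. Among 31 glycolysis and hypoxia genes *Ddit4* (1.77), an inhibitor gene of mTORC1, *Ndrg1* (1.15) and the hexokinase gene *Hk2* (1.04) were higher by over 1, and the median was 0.20. Against both ranges only 1 gene of this list was higher. None of 67 ribosomal protein genes passed a difference of 1, but 64 were above 0, with a median of 0.39. Ribosomal transcripts summed to a median of 114833 CPM in d2 cells and 148006 CPM in d3 cells, against 123528 and 108196 CPM in the d2 ranges and 140307 CPM at d1. *Rps20* and *Rpl27a* had the largest differences, 0.79 and 0.75, and in both 37 of 38 d3 cells lay above the d2 median.

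Inflammatory genes were lower in part. Of 21 chemokine, cytokine and acute inflammation genes 7 were lower and 1 was higher by over 1, with a median of -0.59, but 2 were lower and none was higher against both ranges. The median was -0.32 against the early-numbered and -0.19 against the later-numbered d2 cells, and -0.09 in the log2 of the mean CPM. The monocyte chemokine gene *Ccl2* had a median of 5.40 at d2 (0 to 13.02) and of 2.31 at d3 (0 to 12.46), a difference of -2.05, of -1.27 and -2.97 against the early- and later-numbered d2 cells. A few high cells kept its mean close, at 293 and 277 CPM. *Il1rl1*, the IL-33 receptor gene, was lower by 2.19, with a difference of -0.97 against the early-numbered d2 cells. *Cxcl14* was lower by 1.83 in mean log2 level and higher by 0.08 in the log2 of the mean CPM. The gene with the highest difference of all was the interferon-inducible membrane protein gene *Ifitm1*, on chromosome 7 (mm9, 148153120 to 148155724, plus strand). Its median was 2.21 at d2 (0 to 9.53) and 6.04 at d3 (1.61 to 10.97), 37 of 38 d3 cells lay above the d2 median, and the difference was 3.06. Against the early-numbered and later-numbered d2 cells it was 2.63 and 3.57. The other 18 interferon and MHC class I genes past the limit were not higher by over 1, the list had a median of 0.17, and none of it was lower by over 1 against both ranges. *Xaf1*, an interferon-induced gene, was lower by 1.13 and *H2-K1*, an MHC class I gene, by 1.23, while the latter was higher by 0.07 against the early-numbered d2 cells.

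Genes of skeletal lineages were also split. *Sp7*, which codes for the osteoblast factor osterix, had a median of 0 at d2 (0 to 5.98) and of 2.84 at d3 (0 to 8.73), a difference of 2.24. *Ibsp*, bone sialoprotein, was higher by 2.05, from a median of 1.33 (0 to 9.10) to 2.98 (0 to 10.76). *Spp1*, the gene of the matrix protein osteopontin, was lower by 2.03 and the tendon gene *Tnmd* by 1.69, and for *Spp1* the difference was -0.94 against the early-numbered and -3.33 against the later-numbered d2 cells. The list of 11 bone, tendon and fat genes past the limit had 2 higher, 2 lower (2 and 1 against both ranges) and a median of 0.01, which became -0.03 with edgeR factors and -0.10 with DESeq2 factors. No other list changed sign under these scalings. In the IGF axis *Igfbp6* was lower by 2.25 and the receptor gene *Igf1r* by 1.61, whereas *Igfbp3*, another IGF-binding protein gene, was higher by 1.34.

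**Figure D4:**
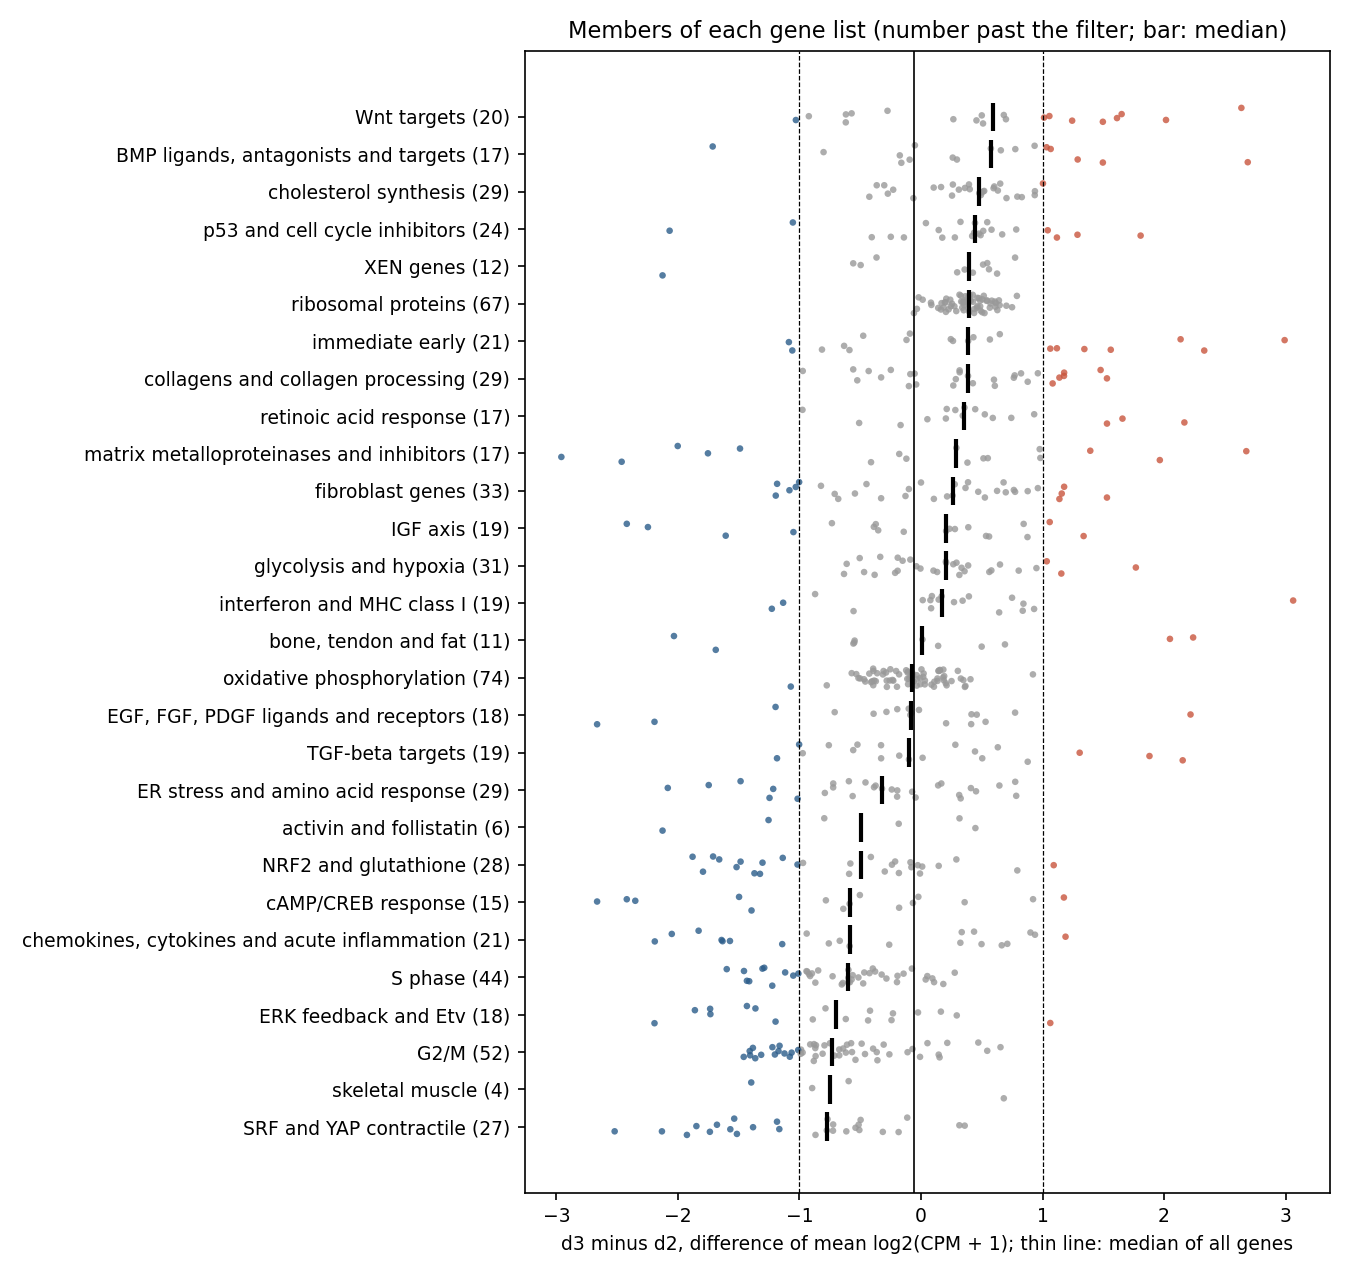
Difference of mean log2(CPM + 1), d3 minus d2, for the members of 28 gene lists that passed the limit on level (number in brackets), 1 point per gene, with the median of each list as a bar and dashed lines at -1 and 1. Lists of SRF and YAP, G2/M and ERK feedback genes have the medians furthest below the -0.06 of all genes among lists of over 4 genes, and Wnt and BMP lists those furthest above.

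Fibroblast markers were present on both days at like summed levels. All 12 fibroblast markers passed the limit, and their summed level had a median of 4020 CPM at d2 (1290 to 15482) and of 4203 CPM at d3 (1206 to 11681). The master genes differed from each other. *Twist2*, a bHLH factor of mesenchyme, was found in all cells of both days, with a median of 9.58 at d2 (4.90 to 11.29) and of 8.43 at d3 (4.33 to 10.27), a difference of -1.18. *Prrx1*, a homeobox factor of limb and skin mesenchyme, was lower by 0.82 and *Twist1* higher by 0.68. *Osr1* was lower by 1.20 in mean log2 level, with UMIs in 60 of 83 d2 cells and 13 of 38 d3 cells. Its mean CPM did not follow (25 and 28.3 CPM), since 1 d3 cell held 776 CPM, without which the d3 mean was 8.11 CPM. Of 33 fibroblast genes past the limit 4 were higher and 5 lower by over 1, and 2 and 2 against both ranges.

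XEN master genes were near the limit of detection on both days. UMIs of *Sox17*, an endoderm factor, were found in 10 of 83 d2 cells (12.0%, exact interval 5.93% to 21.0%) and in 14 of 38 d3 cells (36.8%, 21.8% to 54.0%). No d2 cell and 2 d3 cells reached 20 CPM. The sum was 10 UMIs at d2 (exact Poisson interval 4.80 to 18.4) and 398 at d3 (360 to 439), and the mean was 0.197 and 3.91 CPM. A single d3 cell held 102 CPM, and without it the d3 mean was 1.25 CPM. With every cell thinned to 50000 UMIs, 0 of 82 d2 cells and 1 of 37 d3 cells had a UMI. *Sall4*, a zinc finger factor of early embryonic cells, had UMIs in 7 cells of each day (8.43% and 18.4%) and reached 20 CPM in 3 d3 cells. *Gata4* was found in 1 d2 cell and in 0 of 38 d3 cells, which allows a share of cells with a UMI of up to 7.89% and sets no limit on cells that express it, and *Foxa2* in none of either day. *Gata6* and *Sox7*, both present in XEN cells, differed by 0.55 and 0.56 with medians of 0. Of the 12 XEN genes past the limit *Fst* alone differed by over 1.

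Markers of other cell types had summed medians far below that of the fibroblast markers, the highest being that of the XEN-like list. The summed level of 11 XEN-like markers had a median of 41.1 CPM at d2 and 40.6 CPM at d3, mostly from *Dab2* and *Cited1*. Macrophage markers had medians of 0.625 and 2.97 CPM with ranges of 0 to 218 and 0 to 168 CPM, and *Ptprc*, *C1qa* and *C1qb* had no UMI. The 1 macrophage marker past the limit on level was higher at d3 by 1.06, but by 0.85 against the later-numbered d2 cells. Endothelial markers had medians of 12.1 and 6.02 CPM, with ranges of 0 to 582 and 0 to 660 CPM, and *Pecam1* had no UMI. Neural and Schwann markers had medians of 4.81 and 8.16 CPM (0 to 357 and 0 to 339), and erythroid markers had a median of 0 on both days. Epithelial markers had medians of 8.74 and 1.04 CPM, with up to 4886 CPM in a d2 cell and 76.5 CPM at d3, and *Krt19*, a keratin gene, was lower by 1.96. Muscle markers had medians of 2.27 and 0 CPM, with up to 9375 CPM in a d2 cell and 34.8 CPM at d3. Their part in the lower contractile genes was not tested.

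Several of the largest differences belonged to surface and secreted proteins outside the lists. *Tm4sf1*, a tetraspanin-like membrane protein gene on chromosome 3 (mm9, 57089533 to 57105841, minus strand), had a median of 8.08 at d2 (1.73 to 11.35) and of 4.71 at d3 (0 to 9.78). All d2 cells and 34 of 38 d3 cells had its UMIs, and the difference was -3.13. *Itga6*, which codes for a laminin-binding integrin subunit, went from a median of 4.65 (0 to 8.16) to 0.38 (0 to 6.63), with a difference of -2.82. *Slc14a1*, a urea transporter gene, went from 6.63 (0 to 9.66) to 1.09 (0 to 9.50), and its difference of -3.29 was the lowest of all. *Lgals3*, the galectin-3 gene, was lower by 2.42, *Cd34*, a sialomucin gene, by 2.60, *Bok*, a gene of the BCL-2 family, by 2.77 and the neurofilament gene *Nefl* by 2.66. Each of these was lower by over 1 against both d2 ranges, and *Bok* and *Itga6* slightly more so against the early-numbered. For *Cd34* the differences were -1.87 against the early-numbered and -3.47 against the later-numbered.

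On the higher side, *Frem1*, a basement membrane protein gene, went from a median of 1.49 (0 to 7.71) to 6.63 (0 to 9.04), with a difference of 2.81. *S1pr1*, a receptor gene for sphingosine-1-phosphate, was higher by 2.40, the secreted factor gene *Ndnf* by 2.50, the cytokine receptor gene *Il4ra* by 2.53, the collagen gene *Col26a1* by 2.73 and *Wdr86* by 3.0. Of these, *Wdr86* and *Col26a1* differed most between ranges, with 2.00 and 2.02 against the early-numbered and 4.18 and 3.57 against the later-numbered d2 cells. *Chchd10*, a mitochondrial protein gene, was higher by 2.31, with 2.48 and 2.1 against these ranges. In mm9 it lies at 75398318 to 75400470 of chromosome 10 (plus strand), within the bounds of *Mmp11* (75385967 to 75400678, minus strand). Whether UMIs of 1 of these genes were counted for the other was not tested.

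Levels on the days around d2 and d3 place these differences. Of the 387 higher genes 61 had already been higher at d2 than at d1 by over 1 and 12 lower, and of the 610 lower genes 37 had been lower and 79 higher. The same d2 mean had chosen these genes, and shares over all genes are not given beside these counts, which are description only. *Areg* and *Itga6* had means of 1.41 and 1.91 at d0, 4.78 and 5.44 at d1, 3.50 and 4.24 at d2 and 0.83 and 1.42 at d3. Both were thus below their d0 level at d3. *Bmp2* had means of 1.71 at d0, 4.62 at d1, 5.93 at d2 and 4.22 at d3. Later days share the d2 cells as reference, and these cells also served to choose the genes. Shares over all genes are not given for these days either, so the counts do not measure how far the differences lasted. Compared with the d2 cells, 226 of the 387 were higher by over 1 also at d5. In the d4 cells numbered up to 48 these were 145, in those numbered from 49 they were 123, and 59 were higher in all of these groups. Of the 610, 380 were lower at d5, 327 and 307 in the d4 ranges and 159 in all. The d4 ranges stood further apart than those of d2, by over 1 in 1117 of the 9541 genes in one direction and 793 in the other. Both counts were above the 387 and 610 of d3 against d2. *Msx2* and *Frem1* stayed high, with means of 5.02 and 5.88 at d5 against 4.84 and 5.37 at d3, and *Notum* was at 7.60 at d3, 5.33 and 5.89 in the d4 ranges and 7.47 at d5. *S1pr1* was at 4.87 at d3, 6.16 and 2.94 in the d4 ranges and 4.76 at d5. *Plaur* stayed low, at 2.37 at d3, 1.01 and 2.97 in the d4 ranges and 1.98 at d5, and *Tagln2* stayed at 5.61 to 7.0 from d3 to d5. *Acta2* varied, with means of 8.97 at d2, 6.45 at d3, 9.31 and 7.65 in the d4 ranges and 5.43 at d5. The summed SRF and YAP list had medians of 16841 CPM at d2 and 11516 CPM at d3. In the d4 ranges these were 16679 and 13823 CPM, and at d5 12527 CPM.

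**Figure D5:**
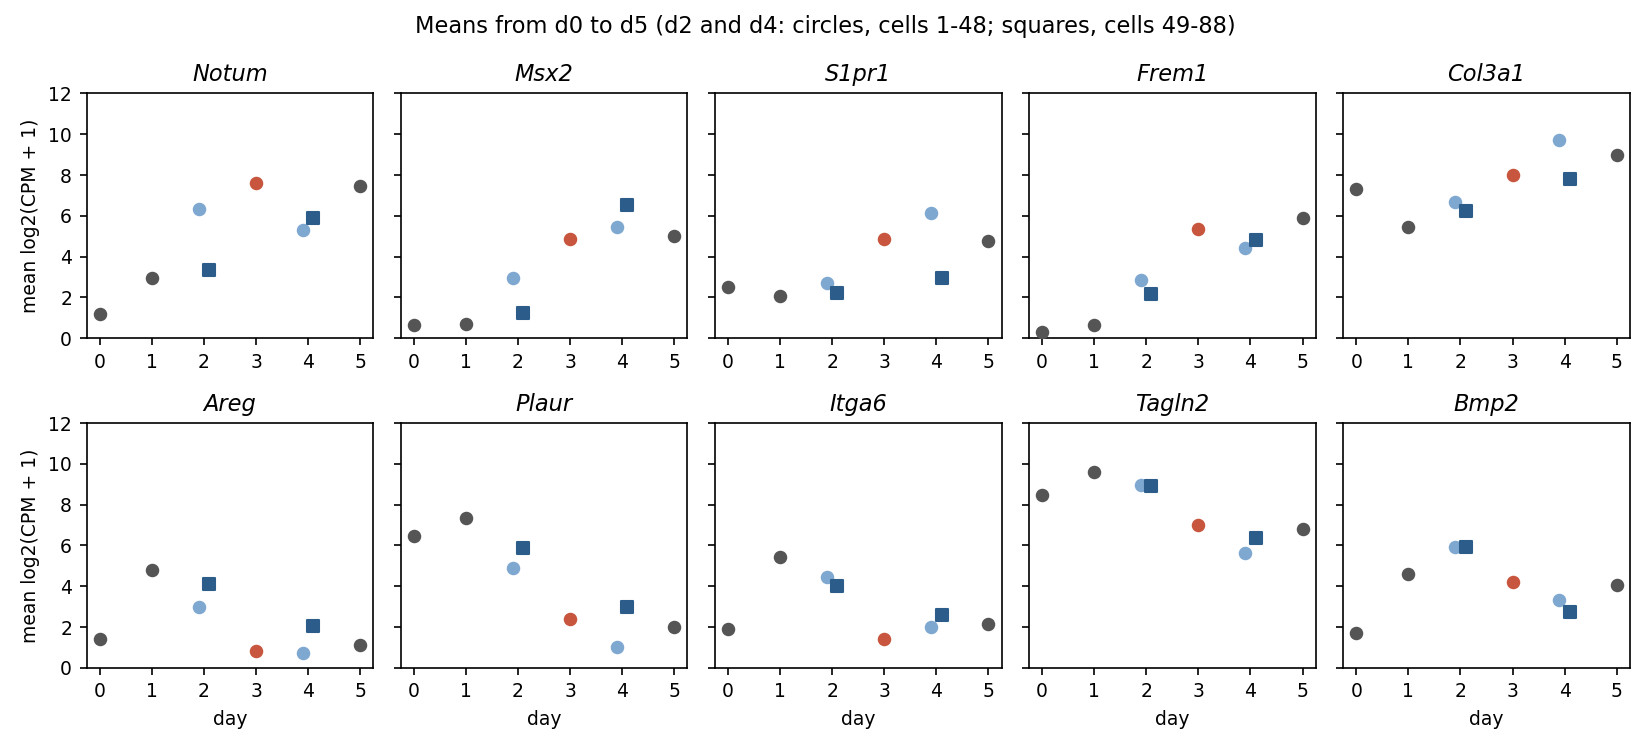
Mean log2(CPM + 1) of 10 genes by day from d0 to d5, with the d2 and d4 cells shown by number range (circles for cells up to 48, squares for cells from 49) and d3 in red. The upper 5 genes are higher at d3 than in both d2 ranges, the lower 5 are lower, and for *Notum* the d2 ranges lie at 6.35 and 3.33.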

How the data were processed

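Per the labels, reads of hand-picked single cells were separated by barcode and trimmed. The authors mapped them to the mouse transcriptome of build mm9 and collapsed duplicates on UMIs. The aligner is not given in the sources used here. The deposited values are whole-number counts, unscaled. The table held 23197 genes, 92 spike-in RNAs and 808 cells. Entries of repeated date-like names (4) were left out. No doublet caller was run on hand-picked cells.

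CPM were computed without spike-in RNAs, with a pseudocount of 1 and a minimum average of the day means of 1. Members and gene lists (28 pathway and 8 marker lists) were chosen with earlier results of these data known. Named genes were the master genes of the study, *Bmp2* and *Bmp4*, the 15 largest differences in each direction, the 10 largest against both d2 ranges in each direction, up to 4 members per list with the largest absolute difference, and members past 1 in lists of the cocktail pathways. Other members were named after their values were seen. Single values of a few genes under this rule are not reported here. Exact Poisson and Clopper-Pearson intervals are at 95%, and a share of 0 was read as allowing 3 cells. Alternatives changed the limits on cells and genes, pseudocount, scaling, depth, averaging, threshold and d2 or d3 cells. The steps were also run on simulated cells with known changes, as a check that changed genes were recovered. This run is not used here to set an error rate for the counts of higher and lower genes. Gene positions came from the GENCODE M1 annotation of mm9 (NCBIM37) and promoters from RefSeq (GRCm38.p6). Python 3.11.15, numpy 2.4.6, pandas 2.3.3, scipy 1.17.1, matplotlib 3.10.9 and R 4.3.3 were used, with scaling factors from edgeR 4.0.16 and DESeq2 1.42.0.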

Additional observations from a re-analysis of the deposited data

How the results depend on the processing

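Of 387 genes higher and 610 lower by over 1 at d3, the numbers moved by over 1.5 times under these settings. An average level of at least 3 left 198 and 379, a difference of over 2 left 29 and 48, and a pseudocount of 10 left 71 and 120. Against the later-numbered d2 cells alone they were 624 and 1053 with the limit on level applied to those cells. Higher genes numbered 762 from summed UMIs, 867 from the mean CPM, 832 from medians and 598 after thinning to 50000 UMIs. The other settings gave 297 to 430 higher and 477 to 798 lower genes. Among named genes, *Anln* (0.0812), *Birc5* (0.0448) and *Sfrp1* (0.508) were higher at d3 from summed UMIs, *Cxcl14* (0.0781) and *Osr1* (0.175) from the mean CPM, and *H2-K1* (0.0695) against the early-numbered d2 cells. For *Osr1* a single d3 cell set the mean, and for the others the cause was not tested. Of 115 named genes past 1, all kept their direction with edgeR and DESeq2 factors, and 112 and 109 stayed past 1. No value came from d3 cells numbered from 49, since there are none. No paired analysis was possible because cell names give no batch and the table is 1 sample without replicates. Cells of a day may share a culture dish or a library, and the spread between cultures was not measured. Low genes rest on few UMIs in the shallow cells.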
